A study of Mus musculus with 12 samples.

Results

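The 7 genes described here are Srebf1, Mlxipl, Nr1h3, Thrsp, Pnpla3, Pklr and Me1: the transcription factors of hepatic fat synthesis and a small group of their target genes at the entry from sugar breakdown into lipid. They were chosen by name, and each was read from the probesets (groups of short probes for 1 transcript) that carry it as their only gene in the platform annotation. They make up 7 of 11899 genes tested, and all 7 were measured. Liver RNA came from 6 male C57BL/6 mice that drank water with low-dose penicillin after weaning, and from 6 male C57BL/6 mice given no antibiotic. All 12 animals were bought from Jackson Labs, had free access to food and water under 12 h of light and 12 h of darkness, and were killed after 7 weeks of intervention. Each liver was hybridised to 1 Affymetrix array. The series asked how such treatment alters colonic bacteria and early adiposity. The sources used here give neither the dose, the hour and feeding state at collection nor the cages, so p-values assume mice that are independent of each other.

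Fat synthesis in the liver is switched on after a meal by a pair of transcription factors. SREBP-1, the product of Srebf1, responds to insulin, and its gene is itself a target of the oxysterol receptor LXR-alpha, the product of Nr1h3. ChREBP, the product of Mlxipl, responds to metabolites of glucose and acts on genes such as Pklr, which encodes the pyruvate kinase of liver and red cells. Thrsp encodes Spot 14, a nuclear protein induced by thyroid hormone and carbohydrate. Me1 encodes cytosolic malic enzyme, a source of NADPH for fatty acid synthesis, and Pnpla3 encodes a lipid droplet protein known as a target of SREBP-1.

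Sequence upstream of the genes is shown for Thrsp and Srebf1, which had the smallest p of the 7, and for Mlxipl and Pklr, a regulator and its textbook target. RefSeq's promoter table (build GRCm38.p6) held 13 windows of 250 bases for the 7 genes, each ending at a transcript start. The windows were searched on both strands for 8 motifs: the E-box CACGTG and a pair of CANNTG with 5 bases between them, the sterol element core TCACNCC, the nuclear receptor element AGGTCA alone and as a pair with 4 bases between, the CCAAT box, the GC box GGGCGG and the TATA box TATAAA. A pair of CACGNN and NNCGTG, also with 5 bases between, was added after the sequences had been read, and CACGTG is itself a CANNTG. Capitals mark matches, the minus strand written as it reads on the plus strand of the gene (ATTGG for CCAAT).
Srebf1, chr11:60210472-60210721, minus strand, the most downstream of 3 windows: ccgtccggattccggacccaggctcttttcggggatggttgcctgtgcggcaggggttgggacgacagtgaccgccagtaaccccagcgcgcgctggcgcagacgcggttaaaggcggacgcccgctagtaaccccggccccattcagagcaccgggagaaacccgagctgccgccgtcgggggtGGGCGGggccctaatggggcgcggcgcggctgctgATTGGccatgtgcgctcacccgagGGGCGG
Mlxipl, chr5:135089640-135089889, plus strand, the first of 2 windows: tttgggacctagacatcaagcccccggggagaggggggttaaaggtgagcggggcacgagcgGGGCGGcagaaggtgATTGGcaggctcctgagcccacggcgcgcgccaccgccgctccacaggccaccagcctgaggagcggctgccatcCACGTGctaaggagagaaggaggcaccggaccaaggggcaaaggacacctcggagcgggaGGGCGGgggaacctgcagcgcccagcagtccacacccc
Thrsp, chr7:97417551-97417800, minus strand: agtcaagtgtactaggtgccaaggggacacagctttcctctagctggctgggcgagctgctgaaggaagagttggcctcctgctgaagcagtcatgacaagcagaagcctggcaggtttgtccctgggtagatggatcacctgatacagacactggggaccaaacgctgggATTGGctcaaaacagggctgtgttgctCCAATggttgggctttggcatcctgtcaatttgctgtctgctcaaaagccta
Pklr, chr3:89136373-89136622, plus strand, the second of 2 windows: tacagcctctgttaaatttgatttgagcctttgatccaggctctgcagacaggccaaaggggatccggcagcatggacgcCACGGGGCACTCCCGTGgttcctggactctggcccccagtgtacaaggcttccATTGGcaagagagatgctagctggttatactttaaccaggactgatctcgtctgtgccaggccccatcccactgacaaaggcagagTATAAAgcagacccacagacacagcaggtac
The Pklr window holds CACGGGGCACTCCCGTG, the added pair, 170 to 154 bases before the start. That pair is in 0.219% of 32851 RefSeq windows (72 windows). It also holds CCAAT on the minus strand at 117 to 113 bases and TATAAA at 31 to 26 bases, letters found in 33.8% and 12.4% of all windows. Thrsp has CCAAT on both strands, at 79 to 75 and 52 to 48 bases. Srebf1 has GGGCGG, found in 32.7% of windows, at 65 to 60 and 6 to 1 bases, and CCAAT at 30 to 26 bases. The Mlxipl window has CACGTG, found in 6.02% of windows, at 98 to 93 bases, beside a CCAAT at 173 to 169 bases and GGGCGG at 188 to 183 and 38 to 33 bases. TCACNCC (13.4% of windows) and AGGTCA (14% of windows) occur in other windows of the 7 genes, and a pair of CANNTG or of AGGTCA (0.639% and 0.0152%) in none of the 13. These are matches of letters and were not tested against the expression values.

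All values below are log2 of the deposited probeset intensity. Arrays correlated with each other at 0.98 to 0.997 over genes, and none was taken as a copy of another. Earlier results of these data had shown that some arrays stand apart, and the results of the 7 genes and the counts of the lists are given with and without them. Control 1, 3 and 5 had high immediate early genes (Fos, Egr1 and others that respond to stimuli within minutes), with a mean z score of 1.17 to 1.72, against -0.68 to -0.23 on the 9 other arrays. Penicillin 1, 5 and 6 and control 6 had a distinct state of the clock genes (the clock-high set in the plots), with 3.49 to 4.31 on their first principal component (74.7% of the variance), against -4.45 to 1.00 on the 8 other arrays. The liver label held: 9 measured hepatocyte markers averaged 13.36 to 13.64 with penicillin and 13.38 to 13.71 in controls.

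Of the 7 genes, 0 passed limma at an adjusted p of 0.05, beside 0% of the 11899 genes tested (0 genes, smallest adjusted p = 0.265). Thrsp and Srebf1, both higher, were the 2 of 7 with an unadjusted p under 0.05, where 4.33% of all genes reached it in that direction, 3.66% in the other and 7.98% in either (950 genes). An exact permutation test compares a gene's group difference with those of all 924 ways to form the groups, and its smallest p is 0.00216. Thrsp had an exact permutation p = 0.0108, Srebf1 an exact permutation p = 0.0606, and the other members an exact permutation p of 0.292 to 0.965. No share of all genes under 0.05 in the exact permutation test is available, so how unusual these values are cannot be said. The difference was above 0 for 6 of 7 genes, beside 52.8% of all genes (6278). The median difference of the 7 was 0.19, beside 0.0064 over all genes. The 7 were read on the same arrays and were not tested as a group. For none of the 7 did every penicillin array lie above every control array, as it did for 31 genes in all (0.261%), or below, as for 18 genes (0.151%). Without control 1, 3 and 5, 0 of 7 had an unadjusted p under 0.05, beside 4.1% of all genes, and the median of the 7 was 0.13. Without the 4 arrays of the distinct clock state, Thrsp and Srebf1 again had one, beside 7.25% of all genes. In whole liver, fewer cells of a type and less RNA per cell cannot be told apart.

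**Figure D1:**
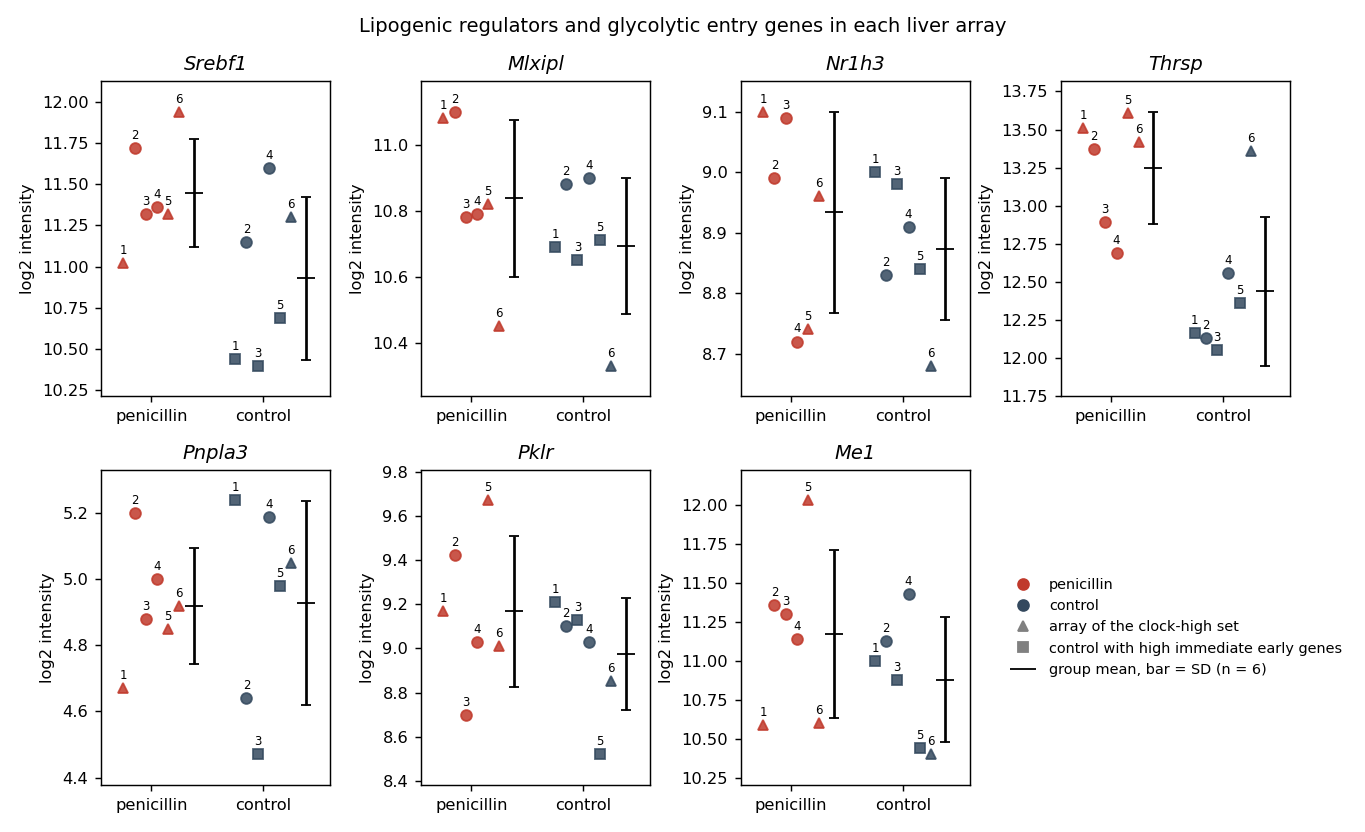
Log2 intensity of each of the 7 genes on each array, with penicillin arrays on the left and control arrays on the right of every panel. Points are arrays, marked by the states of their clock and immediate early genes, and the bars are group means ± SD (n = 6 each); 4 penicillin arrays of Thrsp lie above the highest control, while the other genes overlap more.

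Srebf1 was 1.43-fold higher in penicillin livers, without passing. Its level was 11.02, 11.72, 11.32, 11.36, 11.32 and 11.94 on penicillin arrays 1 to 6, against 10.44, 11.15, 10.40, 11.60, 10.69 and 11.30 on control arrays 1 to 6. All 6 penicillin arrays lay above the control median of 10.92, and the 3 controls below the lowest penicillin array were control 1, 3 and 5. The mean was 11.44 ± 0.33 with penicillin and 10.93 ± 0.49 in controls (SD, n = 6 each), a difference of 0.51 (SE 0.22, 95% interval 0.05 to 0.98; limma adjusted p = 0.593; exact permutation p = 0.0606, two-sided). The 3 controls with high immediate early genes averaged 10.51, and the other 3 controls 11.35. Without those 3 arrays the difference was 0.09 (interval -0.32 to 0.51; limma adjusted p = 0.996), and with the immediate early score as a covariate it was 0.02 (interval -0.36 to 0.41). Only controls had a high score, so the score and penicillin cannot be fully told apart in that fit. Without the 4 arrays of the distinct clock state the difference was 0.61 (limma adjusted p = 0.683). With the clock score as a covariate it was 0.56 (limma adjusted p = 0.434). Which transcript forms of Srebf1 the probeset reads is not given in the sources used here.

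Mlxipl differed by less than the spread between animals. Its level had a lowest, median and highest value of 10.45, 10.80 and 11.10 on penicillin arrays, against 10.33, 10.70 and 10.90 on control arrays. The groups overlapped over most of their range. The lowest array of each group was number 6, penicillin 6 at 10.45 and control 6 at 10.33, and the highest was penicillin 2 at 11.10. The means were 10.84 ± 0.23 with penicillin and 10.69 ± 0.21 in controls (SD, n = 6 each), a difference of 0.14 (SE 0.12, interval -0.11 to 0.40; limma adjusted p = 0.818; exact permutation p = 0.292). The interval reaches from 0.924-fold to 1.32-fold. The difference was 0.07 without control 6 and 0.22 without penicillin 6, 0.09 without penicillin 1 and 0.09 without penicillin 2.

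Nr1h3 was the steadiest of the 7 genes, with all 12 arrays within 0.42. Its lowest, median and highest values were 8.72, 8.97 and 9.10 with penicillin, against 8.68, 8.87 and 9.0 in controls, and the groups overlapped almost wholly. The difference of 0.06 (SE 0.08, interval -0.12 to 0.24; limma adjusted p = 0.904; exact permutation p = 0.468) has a 95% interval from 0.922-fold to 1.18-fold. Its standard deviation within groups, 0.143, was close to the median of 0.152 over all genes. Leaving out control 6, penicillin 1 or penicillin 3 gave a difference of 0.02 to 0.03, leaving out penicillin 4 or penicillin 5 gave 0.10, and leaving out control 1, 3 and 5 gave 0.13.

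Among the targets, Thrsp differed most, 1.76-fold higher in penicillin livers, without passing. Its level was 13.51, 13.37, 12.89, 12.69, 13.61 and 13.42 on penicillin arrays 1 to 6, against 12.16, 12.13, 12.05, 12.56, 12.36 and 13.36 on control arrays 1 to 6. Control 6 was the exception among controls: the other 5 lay below the lowest penicillin array, and 4 penicillin arrays lay above control 6. The mean was 13.25 ± 0.37 with penicillin and 12.44 ± 0.49 in controls (SD, n = 6 each), a difference of 0.82 (SE 0.22, interval 0.33 to 1.30; limma adjusted p = 0.434; exact permutation p = 0.0108, two-sided).

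The level of Thrsp also went with the clock state of the arrays. Penicillin 1, 5 and 6 averaged 13.52 and the other 3 penicillin arrays 12.99, while control 6 stood at 13.36 and the other 5 controls averaged 12.25. Without these 4 arrays of the distinct clock state the difference was 0.73 (interval 0.36 to 1.11; unadjusted p = 0.00154, adjusted p = 0.516 in limma), nearly as large as with them. With the clock score as a covariate it was 0.69 (interval 0.28 to 1.10, limma adjusted p = 0.281). Without control 1, 3 and 5 it was 0.57 (interval -0.04 to 1.18, limma adjusted p = 0.996). With the immediate early score as a covariate it was 0.50 (interval -0.06 to 1.07, limma adjusted p = 0.987), with the same limit as for Srebf1. Over the 12 fits that each left out 1 array it lay between 0.74 and 1.00, the highest without control 6, and the smallest adjusted p in limma was 0.156. Another Thrsp probeset followed the one used at r = 0.997 over the 12 arrays and differed by 1.01, and the third differed by 0.36 and followed it at r = 0.654, or at 0.227 with group means removed (0.994 for the other).

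Pnpla3 was dim on these arrays, with a mean of 4.92 against a filter of 4.73, and the files hold no detection calls. Its lowest, median and highest values were 4.67, 4.90 and 5.2 with penicillin, against 4.47, 5.02 and 5.24 in controls, and the control range took in that of penicillin. The difference was -0.009 (SE 0.13, interval -0.30 to 0.28; limma adjusted p = 0.99; exact permutation p = 0.965). It changed sign with the choice of arrays, from -0.10 without control 3 to 0.05 without control 1, and no direction can be given.

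Pklr, which makes pyruvate in the last step of glycolysis, had a lowest, median and highest value of 8.70, 9.10 and 9.67 with penicillin, against 8.52, 9.06 and 9.21 in controls. The highest arrays were penicillin 5 at 9.67 and penicillin 2 at 9.42, and the lowest were control 5 at 8.52 and penicillin 3 at 8.70. The difference was 0.19, or 1.14-fold (SE 0.16, interval -0.14 to 0.53; limma adjusted p = 0.811; exact permutation p = 0.292). It was 0.09 without penicillin 5 and 0.10 without control 5. The gene's other probesets gave 0.17 and 0.21. Without the 4 arrays of the distinct clock state the difference was 0.05.

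Me1 varied most within groups of all 7 genes, with a standard deviation of 0.474, larger than that of 96.7% of genes. Its lowest, median and highest values were 10.59, 11.22 and 12.03 with penicillin, against 10.40, 10.94 and 11.43 in controls. Only penicillin 5, at 12.03, lay above the highest control. The difference was 0.29, or 1.22-fold (SE 0.24, interval -0.24 to 0.81; limma adjusted p = 0.818; exact permutation p = 0.31), with 0.12 left without penicillin 5 and 0.19 without control 6. The other Me1 probeset gave 0.42. Penicillin 5 was the highest of all 12 arrays for Thrsp, Pklr and Me1, and it had the lowest level of the fasting gene Igfbp1, 9.27, where the 11 other arrays lay between 10.98 and 13.85.

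For the 5 genes other than Srebf1 and Thrsp, the fits without the arrays that stand apart gave no unadjusted p under 0.05. Without control 1, 3 and 5 the differences were 0.13 for Mlxipl, 0.13 for Nr1h3, -0.04 for Pnpla3, 0.17 for Pklr and 0.18 for Me1. Without the 4 arrays of the distinct clock state they were 0.12 for Mlxipl, 0.02 for Nr1h3, 0.12 for Pnpla3, 0.05 for Pklr and 0.29 for Me1.

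**Figure D2:**
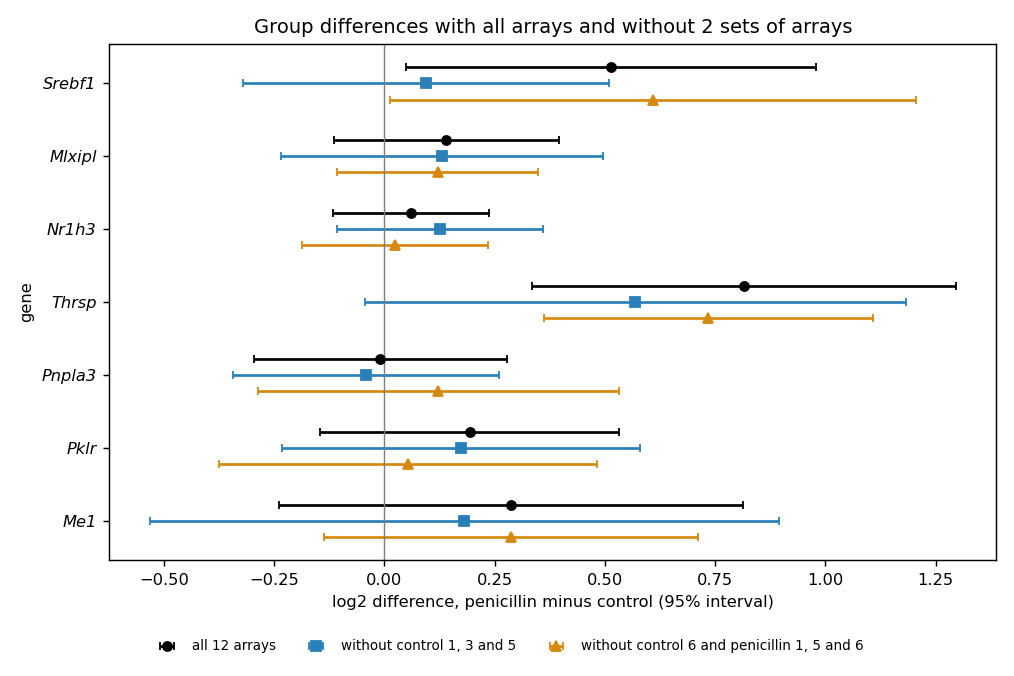
Log2 difference, penicillin minus control, of each gene with its 95% interval from limma, for all 12 arrays, without control 1, 3 and 5, and without control 6 and penicillin 1, 5 and 6. The intervals of Srebf1 and Thrsp take in 0 once control 1, 3 and 5 are left out, and those of Mlxipl, Nr1h3, Pnpla3, Pklr and Me1 take in 0 in every fit shown.

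Whether the regulators move with each other and with their targets was asked by correlation over the 12 arrays, for 15 pairs. None of the 15 passed Benjamini-Hochberg adjustment (0 pairs; 1 at an unadjusted permutation p under 0.05). Among the 3 regulators, r was 0.068 for Srebf1 with Mlxipl (permutation p = 0.833), -0.127 for Srebf1 with Nr1h3 (permutation p = 0.691) and 0.405 for Mlxipl with Nr1h3 (permutation p = 0.193). Srebf1 with Thrsp gave the largest value, with Pearson r = 0.644 (permutation p = 0.0267, adjusted p = 0.401) and Spearman rho = 0.538 (permutation p = 0.0753). It was 0.387 without the 2 arrays farthest from the median of Srebf1, 0.42 with group means removed, 0.082 within penicillin arrays and 0.592 within controls (exact permutation p = 0.9 and 0.192). Without control 1, 3 and 5 it was 0.17 over 9 arrays (exact permutation p = 0.661), and without the 4 arrays of the distinct clock state 0.793 over 8 (exact permutation p = 0.0184, adjusted p = 0.105). Control 1, 3 and 5 were the arrays lowest in both genes but for control 2, whose Thrsp was lower than that of 2 of them. Their part in the relation was not tested apart from that of the group difference.

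**Figure D3:**
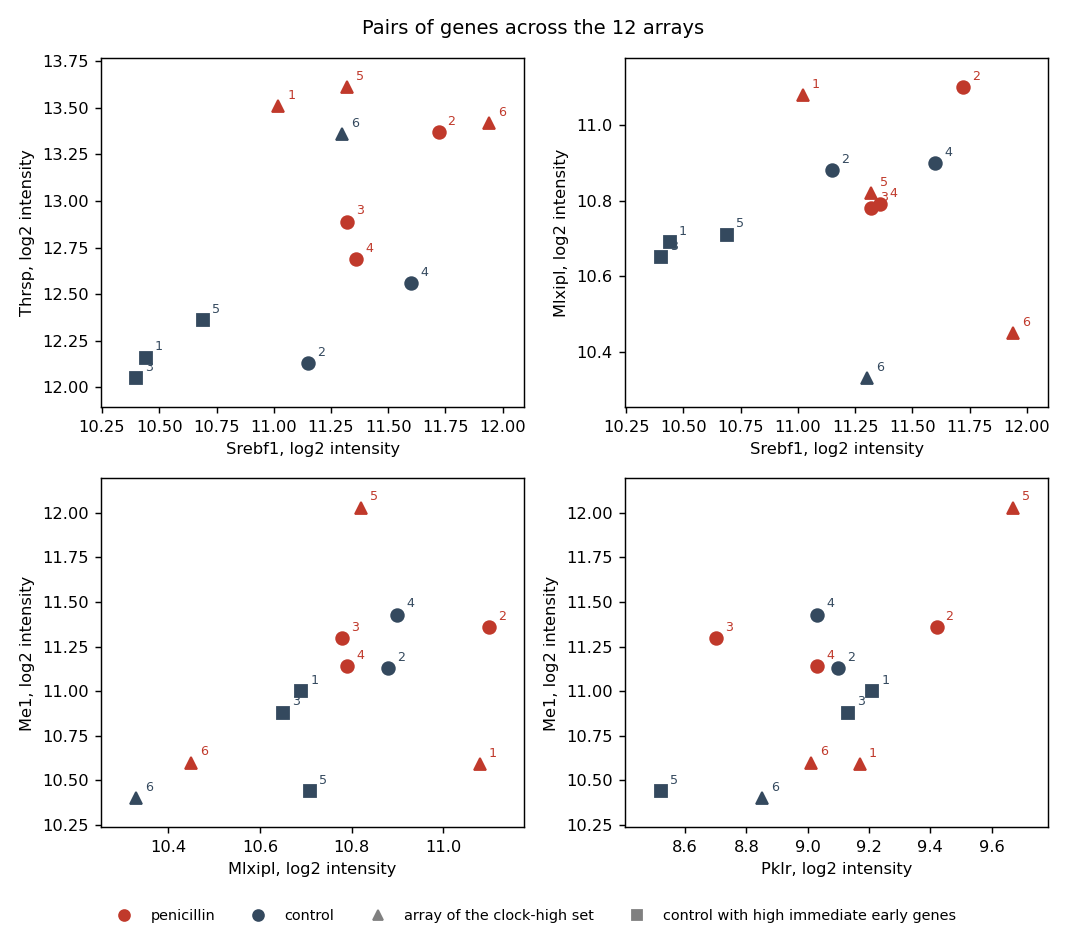
Log2 intensity of 4 pairs of genes on the 12 arrays, with array numbers beside the points, penicillin and control arrays in different colours and the arrays that stand apart in their own shapes. In the plot of Thrsp on Srebf1, control 1, 3 and 5 lie at the lower left; in that of Me1 on Pklr, penicillin 5 lies at the upper right.

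Mlxipl, the sugar sensor of the group, had its largest r with Me1, 0.474 (permutation p = 0.119, adjusted p = 0.755), and r = 0.395 with Pklr (permutation p = 0.201). With Me1 it was 0.171 within penicillin arrays and 0.791 within controls (exact permutation p = 0.0375, adjusted p = 0.385). Nr1h3 had r between -0.139 and -0.031 with the 4 targets over all 12 arrays. Within controls its r was -0.818 with Thrsp (exact permutation p = 0.0514, adjusted p = 0.385), -0.075 with Pnpla3, 0.552 with Pklr and 0.552 with Me1. Within penicillin arrays it was 0.151, -0.25, -0.456 and -0.541 in the same order. Srebf1 and Mlxipl, at r = 0.068 over all 12 arrays, had r = 0.86 over the 8 arrays outside the distinct clock state (exact permutation p = 0.00382, adjusted p = 0.0573). Over all 6 arrays of a group, those of the distinct clock state included, r was -0.534 within penicillin and 0.136 within controls. These are other sets of arrays than the 8, for which r within each group was not computed. The pair Pklr and Me1, both targets, was outside the 15 tests. As a description, its r was 0.648 over 12 arrays, 0.564 within penicillin and 0.686 within controls.

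**Figure D4:**
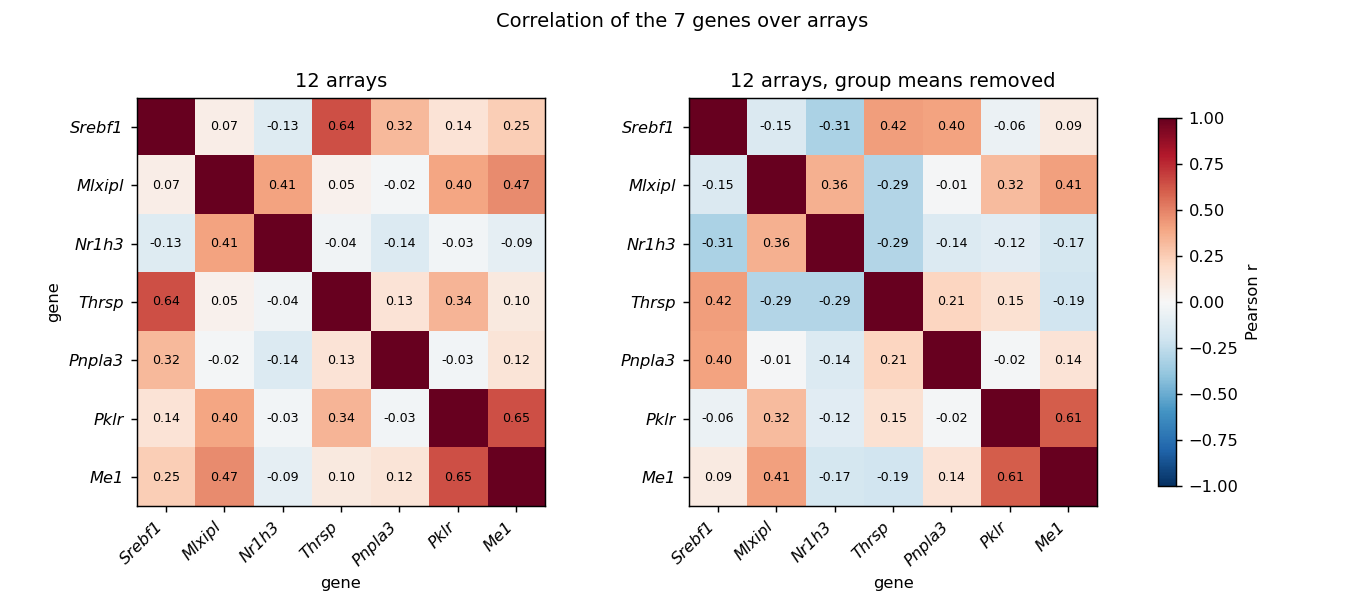
Pearson r between the 7 genes over the 12 arrays, at left as measured and at right with group means removed. Srebf1 with Thrsp stands at 0.64 at left and 0.42 at right, and Pklr with Me1 at 0.65 and 0.61.

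The genes most like each member were taken by r over the 12 arrays with group means removed, as a description with no test. For Srebf1 they were Rtca, Svil and Dock4 (r = 0.915, 0.910 and 0.909). For Mlxipl they were Klf12, Gnpat and Aldh2 (r = 0.930, 0.871 and 0.859), and for Nr1h3 Atp6v0b, Eif4e and Vps18 (r = 0.906, 0.901 and 0.897). For Thrsp they were the peroxisomal thiolase Acaa1a, Bak1 and Lrp4 (r = 0.924, 0.911 and 0.909). For Pklr they were Mapkapk3, Rpia and Bcar1 (r = 0.923, 0.877 and 0.869). For Me1 they were Plekhm1, the lipid droplet protein Plin2 and the fatty acid binding protein Fabp1 (r = 0.897, 0.892 and 0.892), and for Pnpla3 Ctu1, Bola1 and Dph7 (r = 0.898, 0.894 and 0.886). No other member was among the 3 most like any of the 7, and the closest, Pklr for Me1 and Me1 for Pklr, ranked 440 and 250.

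Genes around the 7 were read from 11 lists, and limma called 0 genes on any of them. SREBP is cut loose in the Golgi under control of Scap and the Insig proteins. Of 8 genes of this machinery, 3 were higher and 5 lower with penicillin, with a median difference of -0.07. The count was again 3 higher without control 1, 3 and 5 (median -0.04), but it turned to 5 higher without the 4 arrays of the distinct clock state (median 0.04). The 1 with an unadjusted p under 0.05 was Syvn1, a ubiquitin ligase of the endoplasmic reticulum, at 9.57 with penicillin and 10.34 in controls (difference -0.77, SE 0.22, limma adjusted p = 0.479), and its difference was -0.37 without control 1, 3 and 5. Insig1 differed by -0.22 and the protease gene Mbtps1 by 0.09. Of 11 measured partners of ChREBP and LXR, 7 were higher and 4 lower (median 0.05). Without control 1, 3 and 5, 9 were higher, and without the 4 arrays of the distinct clock state 6 (median 0.06 in both fits). Rxrb, Usf1 and Usf2, with the smallest p, differed by 0.10 to 0.11.

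The enzymes on either side of the 7 genes differed little. Of 12 measured genes of glycolytic and fructose entry, 10 were higher and 2 lower with a median of 0.01, and 0 had an unadjusted p under 0.05. The count was 6 of 12 higher without control 1, 3 and 5 and 7 of 12 without the 4 arrays of the distinct clock state. The glucose transporter Slc2a2 differed by 0.11, Pfkm by 0.06 and Ldha by -0.05. Of 11 fatty acid synthesis enzymes, 9 were higher (median 0.09), again 0 of them with an unadjusted p under 0.05, and 6 were higher without control 1, 3 and 5 (median 0.00) and 10 without the 4 arrays of the distinct clock state (median 0.13). Elovl6, an elongase, averaged 10.19 with penicillin and 9.96 in controls (difference 0.22, SE 0.11, limma adjusted p = 0.628, or 0.13 without those 4 arrays), Fads2 differed by 0.17 and the citrate carrier Slc25a1 by 0.11. All 6 measured genes of NADPH supply other than Me1 were higher, with a median of 0.07, and 5 of 6 were so without control 1, 3 and 5 and 6 of 6 without the 4 arrays of the distinct clock state. Idh1 averaged 13.04 with penicillin and 12.88 in controls (difference 0.16, SE 0.06, limma adjusted p = 0.584, or 0.10 without control 1, 3 and 5), Pgd differed by 0.12 and Taldo1 by 0.08.

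Known targets of the same factors lay on both sides of 0. Of 12 ChREBP targets, 6 were higher and 6 lower, with a median of 0.00. Gpam, which starts triglyceride synthesis, averaged 12.18 with penicillin and 11.93 in controls (difference 0.26, limma adjusted p = 0.585), while the arrestin-like gene Arrdc4 averaged 6.51 with penicillin and 7.18 in controls (difference -0.67, limma adjusted p = 0.511, or -0.33 without control 1, 3 and 5). Fgf21 differed by 0.29. The count turned to 10 higher and a median of 0.18 without control 1, 3 and 5, and to 5 higher and a median of -0.13 without the 4 arrays of the distinct clock state. Of 11 measured LXR targets, 8 were higher, but 3 were higher without control 1, 3 and 5 (medians 0.04 and -0.07), and 6 without the 4 arrays of the distinct clock state (median 0.00). Lpcat3, a phospholipid remodelling enzyme, differed by 0.33 (limma adjusted p = 0.57), and by 0.14 without those controls. Mylip, which marks the LDL receptor for breakdown, differed by -0.25 and the lipase Lpl by -0.63 (limma adjusted p = 0.57 for both), with -0.41 for Lpl without those 4 arrays. Of 8 measured thyroid hormone targets and receptors, 5 were higher (median 0.05), against 6 without control 1, 3 and 5 (median 0.07) and 5 without the 4 arrays of the distinct clock state (median 0.02). Dio1, the liver deiodinase, averaged 10.65 with penicillin and 10.12 in controls (difference 0.53, limma adjusted p = 0.654, or 0.35 without those controls), and the receptors Thra and Thrb each differed by 0.06.

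**Figure D5:**
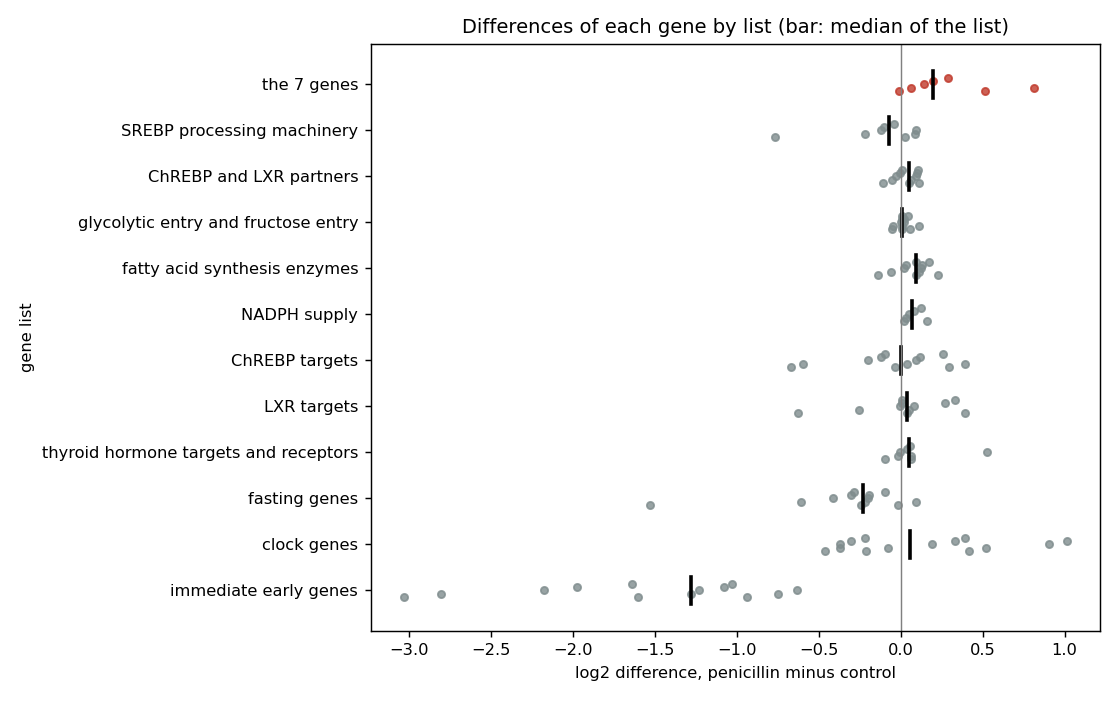
Log2 difference, penicillin minus control, over all 12 arrays for each gene (points) of the 7 genes and of the 11 lists, with a vertical bar at the median of each list. The 7 genes have a median of 0.19, the fatty acid synthesis enzymes of 0.09 and the ChREBP targets of 0.00, while all 13 immediate early genes lie below 0.

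The lists of fasting, clock and immediate early genes describe states of the arrays. Of 12 fasting genes, 11 were lower with penicillin (median -0.23), and 9 of the 12 were lower without control 1, 3 and 5 (median -0.11), and 10 without the 4 arrays of the distinct clock state (median -0.16). The mean z score of the list ran from -1.10 on penicillin 5 to 0.40 on penicillin 1, and from -0.13 on control 6 to 0.67 on control 5. Igfbp1, an insulin-repressed gene, had 11.93, 12.04, 10.98, 12.89, 9.27 and 11.45 on penicillin arrays 1 to 6, against 13.66, 12.71, 13.85, 12.51, 13.38 and 11.62 on control arrays 1 to 6. It was highest in control 1, 3 and 5, the arrays where Srebf1 was lowest, and it differed by -1.53 (SE 0.54, limma adjusted p = 0.57), or by -0.85 without them. Irs2, an insulin receptor substrate that rises in fasting, differed by -0.61 (limma adjusted p = 0.571) and by -0.345 without control 1, 3 and 5, and Pck1 by -0.19. Of 14 clock genes, 7 were higher (median 0.06), against 9 without control 1, 3 and 5 (median 0.23) and 6 without the 4 arrays of the distinct clock state (median -0.04). Hlf differed by 0.42 (limma adjusted p = 0.57) and by 0.24 without control 1, 3 and 5. Per3 differed by 0.90, but by 0.24 without the 4 arrays of the distinct clock state, and Clock by -0.31. All 13 measured immediate early genes were lower (median -1.28), 12 of them with an unadjusted p under 0.05. Fos differed by -3.03, Egr1 by -2.81 and Klf6 by -0.75 (limma adjusted p = 0.265). Without control 1, 3 and 5 the median of this list was -0.19, with -0.43 for Klf6, and without the 4 arrays of the distinct clock state the median was -1.70. The part of these states in the differences of Srebf1 and Thrsp was not tested beyond the fits without those arrays and with the scores as covariates.

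Markers of other cells are given as the mean of each list per array. The array means of the groups did not overlap for the neutrophil list and touched at the edge for the bile duct list, and they overlapped for the others. The 2 measured neutrophil markers, S100a8 and S100a9, averaged 4.29 to 5.46 with penicillin and 5.65 to 8.25 in controls. The penicillin mean of S100a8, 4.74, lay at the filter of 4.73, and that of S100a9 was 5.42. The other neutrophil markers listed, Ly6g, Mpo, Elane and Retnlg, were not tested. The 4 measured bile duct markers averaged 4.85 to 5.46 with penicillin and 5.45 to 5.65 in controls, near the filter of 4.73. Of the adipocyte markers, Adipoq, Cfd, Plin1, Lep and Adrb3 were not tested. The 3 that were (Retn, Lipe and Car3) averaged 8.69 to 8.94 with penicillin and 8.63 to 8.84 in controls. That mean is set mostly by Car3, at 14.31 with penicillin and 14.21 in controls. Lipe had 6.55 and 6.38, and Retn 5.69 and 5.61, so the list mean is no measure of adipocyte RNA. Kupffer cell markers (8 measured) averaged 8.72 to 9.17 with penicillin and 8.79 to 9.40 in controls, endothelial markers (7) 8.24 to 8.54 and 8.34 to 8.79, and stellate cell markers (6) 8.75 to 9.52 and 9.01 to 9.60. The 2 exocrine pancreas markers averaged 7.42 to 7.92 with penicillin and 7.14 to 7.97 in controls, and the 1 red blood cell marker 9.91 to 10.32 and 9.51 to 10.33. The pancreas mean joins Cela1, at 10.26 with penicillin and 10.13 in controls, with Prss2, at 5.1 and 5.15. The part of other cell types in the members' differences was not tested.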

How the data were processed

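Per the labels' protocols, RNA of 12 livers was purified on RNeasy columns and made into labelled cRNA with a 3-prime IVT kit. Intensity values per probeset were deposited by the authors, who named RMA in the submitters' processing notes with no software or version. RMA makes the arrays' distributions alike, which hides a change common to most genes. The intensity values were deposited on a linear scale (4.92 to 36550), and log2 was taken here with no further normalization.

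Of 45101 probesets, 64 were controls and 34945 of the others named 1 gene. Probesets with a mean under the median of the non-control probesets (4.73) were left out, and the brightest remaining probeset stood for its gene, which gave 11899 genes. All 12 probesets of the 7 genes passed. Penicillin minus control was tested with limma 3.58.1 in R 4.3.3 (empirical Bayes, two-sided, Benjamini-Hochberg over all genes, threshold 0.05), and single genes also by exact permutation. Correlations were permuted 100000 times, or over every pairing below 10 arrays. The limma fit was tested on simulated data, and the permutation tests, correlations and motif search were not. The 7 genes, the lists, the tests and the arrays left out were chosen with earlier results of these data known. All 7 genes are named, and of each list the 3 with the smallest p. The number of arrays limits the precision.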

Additional observations from a re-analysis of the deposited data

Results flagged for a closer look

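Each gene named from the lists, and each of the 7 genes, was checked within each group of 6 arrays for a highest or lowest array whose gap to its nearest neighbour was large against the group's range (80 groups, 40 genes). Chance gives such a gap in about 1 in 20 groups, and 3 were found, in none of the 7 genes. Idh1 was highest on penicillin 5 at 13.18, where the next penicillin array had 13.05. Fads2 was highest on control 6 at 10.99, where the next control had 10.64. The clock output gene Hlf was highest on control 6 at 8.2, where the next control had 7.47.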

How the results depend on the processing

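The 0 genes and 0 of 7 members called by limma stayed at 0 under every alternative run for them. These were other probeset summaries, filters, normalizations, offsets, variance priors, array weights, the replicate block, covariates and arrays left out. The 0 correlations called also stayed at 0, under fewer alternatives. Those were Spearman rho, each group alone, group means removed, probeset means, a further quantile normalization, the replicate block and arrays left out. The permutation p-values under the block cannot be relied on, for the reason given below. With the stricter filter 6 members were tested, without Pnpla3. Genes with an unadjusted p under 0.05 numbered 950, but 488 without control 1, 3 and 5, 511 with the immediate early score as a covariate, and 671 to 1244 when 1 array was left out. Members at that level numbered 2, but 0 without control 1, 3 and 5 and 0 with that covariate. When 1 array was left out they numbered 1 or 2. They were 1 without penicillin 2, penicillin 6, control 1, control 3 or control 5. The difference of Srebf1 then ranged from 0.41 to 0.65, with 7 of 12 unadjusted p under 0.05, and that of Thrsp kept 12 of 12. Pnpla3 changed sign, to 0.028 with array weights, 0.122 without the 4 arrays of the distinct clock state and 0.021 with the clock score as a covariate, and ranged from -0.101 to 0.053 when 1 array was left out. The cause was not tested.

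The replicate numbers do not pair the mice by any label: correlations of same-numbered arrays ran from -0.255 to 0.385, and 2 of 6 penicillin arrays (2 and 6) correlated best with their own number. With the replicate number as a block 0 genes and 0 members were called, 1214 genes had an unadjusted p under 0.05, and the limma adjusted p was 0.354 for Thrsp and for Srebf1. Srebf1 with Thrsp had r = 0.47 under the block. Other pairs moved more: Srebf1 with Nr1h3 from -0.127 to 0.653, Srebf1 with Mlxipl from 0.068 to 0.642 and Mlxipl with Thrsp from 0.046 to 0.707. Mlxipl with Me1 fell from 0.474 to -0.121. The smallest adjusted permutation p under the block was 0.179. The block leaves each control value as the mirror of the penicillin value with its number, so these r rest on 6 values. The permutation shuffled all 12 as if independent, so its p-values under the block cannot be relied on.

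Limits are 6 arrays a group, no detection calls, a linear deposited scale whose making is not described, and unknown cages and hours of collection, whose effects cannot be told apart from that of penicillin.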
